A study of Mus musculus with 9 samples.

Results

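The genes described here are 9 negative feedback inhibitors of WNT signalling: Axin2, Nkd1, Notum, Znrf3, Rnf43, Wif1, Apcdd1, Dkk2 and Dkk3. They were chosen by symbol from a table of 24930 gene symbols, and all 9 were in it. RNA came from crypt epithelium of the mouse intestine, taken on days 8, 9 and 10 after induction of 1 gain-of-function copy of Ctnnb1, which encodes β-catenin. There were 3 groups of 3 libraries, with 1 library of each group on each day: control (titled Control), set A (titled Bcathet, the β-catenin allele) and set B (titled Cdx2het_Bcathet, the β-catenin allele with a heterozygous Cdx2 allele). The library names say the reverse: set A libraries carry CDX2HET with EXON3, those of set B only EXON3. Cdx2 itself was at 139, 114 and 108 FPKM for control by day, at 126, 131 and 144 for set A, then at 188, 178 and 196 for set B, so neither mean lay below control. Against control Cdx2 rose in set B, by 0.64 ± 0.10 on the log2(FPKM + 1) scale (limma, adjusted p = 0.0442), and its difference in set A was 0.16 ± 0.10 (adjusted p = 0.479). All 3 set B libraries exceeded those of set A, and that difference of 0.48 ± 0.10 did not pass (adjusted p = 0.948). The set titled with the Cdx2 allele thus had the higher Cdx2, and since neither mean was below control, which set had the allele is not settled and the sets keep neutral names. The sources used here do not give the genotype of the controls, the Cre driver, the age of the mice or the part of the intestine. Nothing in the labels says that libraries came from separate animals, although every library name has a number of its own. The p-values therefore cover only how these libraries vary. Within a group that spread takes in any difference between days, and it may be technical in part.

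In canonical WNT signalling a secreted WNT protein binds a Frizzled receptor and an LRP co-receptor, which stops the destruction complex from breaking down β-catenin, and β-catenin then enters the nucleus and acts with TCF/LEF factors on target genes. Several of those targets encode inhibitors of the pathway, so that signalling limits itself. The inhibitors act at separate levels: on the WNT protein outside the cell, on its receptors at the membrane, and on Dishevelled or the destruction complex inside. In the intestine WNT signalling is strongest at the crypt base, where it maintains stem cells and Paneth cells. Mutant β-catenin without its regulatory exon escapes the destruction complex, so that inhibitors acting on WNT proteins or receptors lie above the altered step.

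The values are FPKM, fragments per kilobase of transcript scaled to library size. Summed FPKM was 624923 to 755802 per library, and, judged from the spacing of low values, 1 FPKM stood for 16.8 to 19.0 fragments per kilobase. Markers of epithelium were high in every library (8 of them summed to 5274 to 6199 FPKM), while 10 fibroblast markers summed to 3.20 to 22.1 FPKM. The day-9 library of set B stood apart from the other mutants: it lay at −19.1 on the first principal component, against −21.6 to −22.7 for the controls and 2.57 to 30.0 for the other 5 mutants. Its Xist value was 0.1 FPKM, against 27.0 to 39.4 in the other 8 libraries, and 4 genes of the Y chromosome summed to 41.7 FPKM in it. In the other libraries that sum was at most 0.0470 FPKM. By these genes set B day 9 was male and the others female, so set B held both sexes. Results below are therefore given with and without this library. In bulk RNA, fewer cells of a type and less RNA per cell cannot be told apart.

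Promoter windows were used for 5 of the 9 genes. None was at hand for Notum, Znrf3 or Dkk3, and Apcdd1 was not looked up, so the counts of member windows leave it out. The 250 bases before the start are shown for these 5 (Axin2, Nkd1, Rnf43, Wif1 and Dkk2), to let their composition and motifs be compared. They come from RefSeq on GRCm38.p6, which is not the mm9 build named in the submitters' processing notes, and all lie on the forward strand: Axin2 at chr11:108920099-108920348, Nkd1 at chr8:88527383-88527632, the first of 2 Rnf43 windows at chr11:87662837-87663086, Wif1 at chr10:121033754-121034003 and Dkk2 at chr3:132085042-132085291. Capitals mark CTTTG, the core of the TCF/LEF motif, on either strand.
Axin2: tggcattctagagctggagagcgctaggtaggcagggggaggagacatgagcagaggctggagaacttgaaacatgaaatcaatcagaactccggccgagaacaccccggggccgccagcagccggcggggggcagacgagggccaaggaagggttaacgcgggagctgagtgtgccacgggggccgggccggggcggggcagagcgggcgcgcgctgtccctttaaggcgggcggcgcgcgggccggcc
Nkd1: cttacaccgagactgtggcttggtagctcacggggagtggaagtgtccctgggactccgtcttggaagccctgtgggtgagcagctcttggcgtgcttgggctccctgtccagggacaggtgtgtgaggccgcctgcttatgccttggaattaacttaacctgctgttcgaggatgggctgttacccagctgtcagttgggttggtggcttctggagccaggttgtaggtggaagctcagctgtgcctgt
Rnf43: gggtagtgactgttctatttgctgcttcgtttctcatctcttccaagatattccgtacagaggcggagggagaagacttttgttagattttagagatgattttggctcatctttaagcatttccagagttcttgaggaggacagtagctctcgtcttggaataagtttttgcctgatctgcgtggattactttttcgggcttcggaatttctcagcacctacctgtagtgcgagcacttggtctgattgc
Wif1: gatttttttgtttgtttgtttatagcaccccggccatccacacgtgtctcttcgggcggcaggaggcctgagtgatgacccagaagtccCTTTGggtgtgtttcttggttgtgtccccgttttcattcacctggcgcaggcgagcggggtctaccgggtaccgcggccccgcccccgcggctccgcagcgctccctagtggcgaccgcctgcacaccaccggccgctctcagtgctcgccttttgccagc
Dkk2: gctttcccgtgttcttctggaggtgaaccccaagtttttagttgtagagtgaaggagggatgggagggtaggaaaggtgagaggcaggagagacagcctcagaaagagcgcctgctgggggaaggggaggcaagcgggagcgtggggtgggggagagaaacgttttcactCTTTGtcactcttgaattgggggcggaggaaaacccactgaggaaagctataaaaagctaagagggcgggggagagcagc
The longer forms CTTTGAA or CTTTGAT, and likewise CTTTGTA or CTTTGTT, all contain the core. They were in none of the 6 member windows on either strand and in 14.8% of 32851 windows of this length. CTTTG itself was in 2 of the 6 member windows, in Wif1 with its first base 161 bases before the start and in Dkk2 at 80 bases, against 48.6% of all windows. The search for the core was added after the longer forms gave no match. The windows printed for Axin2, Nkd1 and Rnf43 did not hold these letters, which says nothing about more distant sequence. By base composition the printed windows differ: G and C make up 69.2% of the Axin2 window, 62.8% of Wif1, 58.4% of Nkd1, 55.6% of Dkk2 and 44.4% of Rnf43, with a median of 52.4% over all windows.

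The inhibitors differed widely in level in control crypts. By control mean, in FPKM, which is per transcript length, the order was Axin2 (37.7 ± 3.41, SD, n = 3), Rnf43 (21.9 ± 1.42), Znrf3 (4.19 ± 0.0276), Nkd1 (2.13 ± 0.217), Apcdd1 (0.393 ± 0.0423), Dkk3 (0.310 ± 0.115), Notum (0.148 ± 0.0702), Dkk2 (0.128 ± 0.0242) and Wif1 (0.116 ± 0.0629). The upper 4 were separated from each other and from the rest in every control library. Apcdd1 overlapped Dkk3, Dkk3 overlapped Notum, and Notum, Dkk2 and Wif1 overlapped among themselves. In set B the means of Nkd1 (14.7 ± 11.3) and Notum (5.52 ± 6.09) lay above that of Znrf3 (4.33 ± 1.16), with a wide spread: the SD was above the mean for Notum and below it for Nkd1. Without set B day 9 the set B means were 8.36 FPKM for Nkd1, 2.01 for Notum and 3.67 for Znrf3, so Notum then lay below Znrf3.

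**Figure D1:**
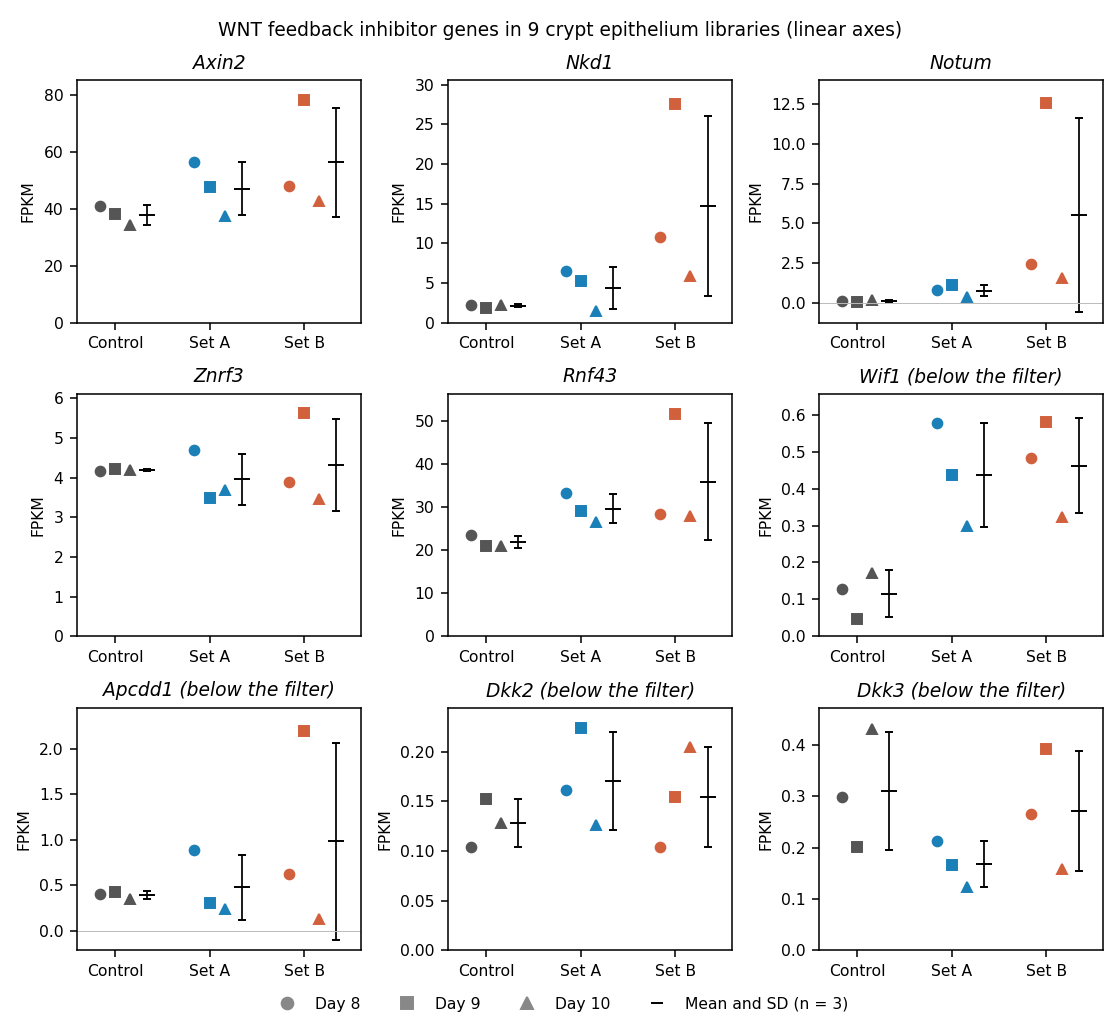
FPKM (linear axis) of the 9 genes in each library, by group, with the day as the marker shape and the group mean and SD (n = 3) beside the points. The day-9 library of set B has the highest point for 7 genes, and for Notum, Rnf43 and Wif1 all 6 mutant points lie above the 3 controls.

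The mean of both mutant sets was set against control to ask how crypts with the β-catenin allele differed. Below, "both sets" stands for that pooled comparison. Notum, Nkd1 and Rnf43 had the larger positive differences, Axin2 a smaller one and Znrf3 one near 0, but 0 of the 5 tested members passed limma's test, fitted over the whole table. Of all 12097 genes tested, 1.16% passed (140 genes), 0.513% as higher and 0.645% as lower. Unadjusted p was under 0.05 for 3 of the 5 (Nkd1, Notum and Rnf43) and for 21% of all genes. With set B day 9 left out, Notum and Rnf43 rose, 2 of the 5, where 8.29% of 12000 genes passed, 4.65% as higher and 3.64% as lower. Unadjusted p was then under 0.05 for 3 of the 5 and for 27.5% of genes. A gene was tested if it reached 1 FPKM in 3 libraries. Notum reached it only in mutant libraries, so its place among the tested genes already depends on the difference. Wif1, Apcdd1, Dkk2 and Dkk3 did not reach that level and are given by their values and an exact permutation test on log2(FPKM + 1), two-sided, whose smallest possible p with 3 against 6 libraries is 0.0119. It was run for all 9 genes and its p-values are not adjusted. For both sets the exact permutation p was 0.0476 for Rnf43, 0.0952 for Axin2, 0.107 for Nkd1 and 0.810 for Znrf3. Those of the other members are given below.

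Among the inhibitors inside the cell, Axin2 encodes a scaffold of the destruction complex and is a common reporter of WNT activity. Control libraries had 41.0, 38.0 and 34.2 FPKM of Axin2 on days 8, 9 and 10, those of set A 56.3, 47.5 and 37.4, and those of set B 47.9, 78.1 and 42.7. Of the 6 mutant libraries 5 lay above every control, and set A on day 10 lay inside the control range. The mutants exceeded control by 0.41 ± 0.20 (SE) on the log2(FPKM + 1) scale, which did not pass (limma, adjusted p = 0.284), and it was 0.28 ± 0.13 without set B day 9 (adjusted p = 0.212). In depth the gene is well covered, with roughly 2676 to 6206 fragments per library if its longest transcript is taken, so counting error is small beside the spread between libraries.

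Nkd1, also known as Naked cuticle homolog 1, encodes a protein that binds Dishevelled and dampens the signal downstream of the receptor. In the same order of days, Nkd1 read 2.26, 1.88 and 2.25 FPKM for control, 6.48, 5.31 and 1.4 for set A, then 10.9, 27.5 and 5.86 for set B. Set A on day 10 lay below every control, and the other 5 mutant libraries lay above them. The mean was 2.06 times the control mean in set A and 6.93 times in set B, or 3.93 times in set B without its day-9 library. The log2 difference was 1.36 ± 0.49 for both sets (limma, adjusted p = 0.173), 0.63 ± 0.56 for set A (adjusted p = 0.604) and 2.08 ± 0.56 for set B (adjusted p = 0.150). None passed. Without set B day 9 the difference was 1.08 ± 0.39 for both sets (adjusted p = 0.133) and 1.53 ± 0.48 for set B (adjusted p = 0.119).

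Notum encodes a secreted enzyme that removes the lipid from WNT proteins and so inactivates them. Its control values were 0.143, 0.0802 and 0.220 FPKM, its set A values 0.817, 1.12 and 0.394, and its set B values 2.46, 12.5 and 1.57. All 6 mutant libraries lay above the controls, all 3 of set B lay above all 3 of set A, and the day-9 library of set B was 5.11 times the next highest. Over the longest transcript of 2212 bases these are about 3 to 9 fragments in control, 15 to 44 in set A and 58 to 517 in set B, so the control level rests on few fragments and any ratio to it is imprecise. The log2 difference for both sets was 1.36 ± 0.47 (limma, adjusted p = 0.164), and the exact permutation p was 0.0595. For a gene this low the size depends on the pseudocount: with 0.1 in place of 1 the difference was 2.87 ± 0.62 for both sets (adjusted p = 0.0687), 1.77 ± 0.72 for set A in place of 0.61 ± 0.55 (adjusted p = 0.272) and 3.97 ± 0.72 for set B in place of 2.11 ± 0.55 (adjusted p = 0.0549). None of these passed. Without set B day 9 Notum rose by 1.00 ± 0.17 (adjusted p = 0.0208), and in set B alone by 1.38 ± 0.22 (adjusted p = 0.0189). The difference was smaller there and so was its standard error, 0.17 in place of 0.47 for both sets.

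Rnf43 and Znrf3 encode related membrane ubiquitin ligases that clear Frizzled receptors from the cell surface, and R-spondins acting through LGR receptors relieve that clearance. Rnf43 values were 23.5, 21.1 and 21.0 FPKM for control crypts, 33.2, 29.2 and 26.6 for set A, then 28.3, 51.5 and 27.8 for set B. Every mutant library lay above every control, by ratios to the control of the same day between 1.21 and 2.44. The log2 difference was 0.53 ± 0.19 for both sets (limma, adjusted p = 0.170), 0.42 ± 0.22 for set A (adjusted p = 0.377) and 0.63 ± 0.22 for set B (adjusted p = 0.207). Without set B day 9 Rnf43 rose by 0.38 ± 0.08 in the pooled comparison (adjusted p = 0.0322), and its difference in set B was 0.35 ± 0.10 (adjusted p = 0.0882).

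Znrf3 did not share that pattern. Its values were 4.16, 4.21 and 4.20 FPKM for control crypts, 4.69, 3.49 and 3.68 for set A, then 3.88, 5.64 and 3.46 for set B. The controls spanned a very narrow range, 4 mutant libraries lay below it and 2 above it. Its log2 difference was −0.03 ± 0.13 (limma, adjusted p = 0.921), and its sign changed when totals were equalised or single libraries were left out.

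Within each library the ratio of Rnf43 to Znrf3, which does not depend on the library's scaling, came to 5.65, 5.01 and 5.00 for control, 7.07, 8.35 and 7.23 for set A, then 7.30, 9.13 and 8.05 for set B. Control did not overlap with the mutants, while sets A and B overlapped, and set B day 9, at 9.13, was the highest. This ratio was looked at after the values were seen and is given without a test. The ratio of Notum to Axin2 also separated control from the mutants (0.00211 to 0.00645 in control and 0.0105 to 0.161 in the mutants), whereas that of Nkd1 to Axin2 did not, since set A on day 10 was at 0.0373 against 0.0494 to 0.0659 in control.

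**Figure D2:**
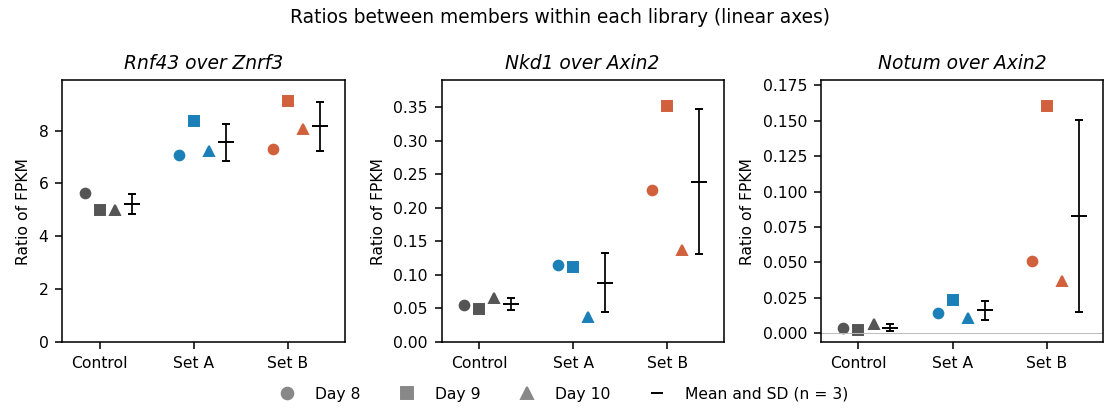
Ratios of FPKM (linear axes) between 2 members within each library, by group, with the day as the marker shape and mean and SD (n = 3). Rnf43 over Znrf3 runs from 5.00 to 5.65 in control and from 7.07 to 9.13 in the mutants, while Nkd1 over Axin2 overlaps between the groups.

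Wif1, Apcdd1 and Dkk2 act on WNT proteins or their receptors from outside the cell or at the membrane, and Dkk3 is described with them. Wif1 encodes a secreted protein that binds WNT proteins directly. Control crypts had 0.128, 0.0476 and 0.172 FPKM of it, those of set A 0.578, 0.436 and 0.297, and those of set B 0.484, 0.579 and 0.324. All 6 mutants lay above the controls (exact permutation p = 0.0119, the smallest possible), with a log2 difference of 0.38 that the pseudocount of 1 shrinks, since the means are 3.89 times apart. With a pseudocount of 0.1 it was 1.36, with the same p. This rests on about 2 to 7 fragments in control and 11 to 25 in the mutants. In a limma fit with no filter Wif1 did not pass (adjusted p = 0.101). For Wif1 the day-9 library of set B did not stand apart, being level with set A day 8. Mutants lay wholly above controls for 3 of the 9 genes, namely Notum, Rnf43 and Wif1, and for none wholly below. Among tested genes 5.19% lay wholly above and 7.37% wholly below, and of genes under the filter with any value 3.06% lay wholly above.

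Apcdd1 encodes a membrane glycoprotein that binds WNT and LRP5. Control crypts had 0.401, 0.430 and 0.347 FPKM, those of set A 0.888, 0.303 and 0.234, and those of set B 0.620, 2.20 and 0.127. The mutants were split, 3 above and 3 below all controls (exact permutation p = 0.631), and only the day-9 library of set B reached 1 FPKM. Dkk2, a Dickkopf that binds the LRP co-receptors, lay at 0.104 to 0.153 FPKM in control and 0.104 to 0.225 in the mutants, which is about 7 to 15 fragments in any library (exact permutation p = 0.286). Dkk3, a divergent member of the same family, lay at 0.201 to 0.431 FPKM in control and 0.123 to 0.392 in the mutants (exact permutation p = 0.25). At this depth no difference was detectable for Dkk2 or Dkk3.

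Comparing the mutant sets asks whether the second allele went with a further change. Notum and Nkd1 were higher in set B in mean, by 1.50 ± 0.55 (Notum) and 1.45 ± 0.56 (Nkd1) on the log2 scale, and Rnf43, Axin2 and Znrf3 by 0.21 ± 0.22, 0.22 ± 0.23 and 0.09 ± 0.15. None passed (limma, adjusted p of 1.00 for each), nor did any of the 12097 genes (0%), of which 376 (3.11%) had an unadjusted p under 0.05, Nkd1 and Notum among them. With set B day 9 left out it was 4.42% of genes, with Notum as the single member. Set B lay wholly above set A for Notum (exact permutation p = 0.1, which 3 libraries against 3 cannot go below), and that was so for 3.18% of the tested genes. Without set B day 9 the difference was 0.77 ± 0.22 for Notum (adjusted p = 0.942) and 0.90 ± 0.48 for Nkd1 (adjusted p = 0.981), while those of Rnf43, Axin2 and Znrf3 turned to −0.07, −0.04 and −0.08. Each set was also compared with control alone, and 0 of the 5 members passed in either. For set A 0.215% of genes passed (0.124% higher and 0.0909% lower) and for set B 0.628% (0.389% higher and 0.24% lower), with 16.7% and 16.5% at an unadjusted p under 0.05, among them none of the members for set A and Nkd1, Notum and Rnf43 for set B. With set B day 9 left out, the shares were 1.05% (0.658% and 0.392%) and 4.03% (2.6% and 1.43%), with 20.3% and 24.1% unadjusted, and the members called were none for set A and Notum for set B.

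**Figure D3:**
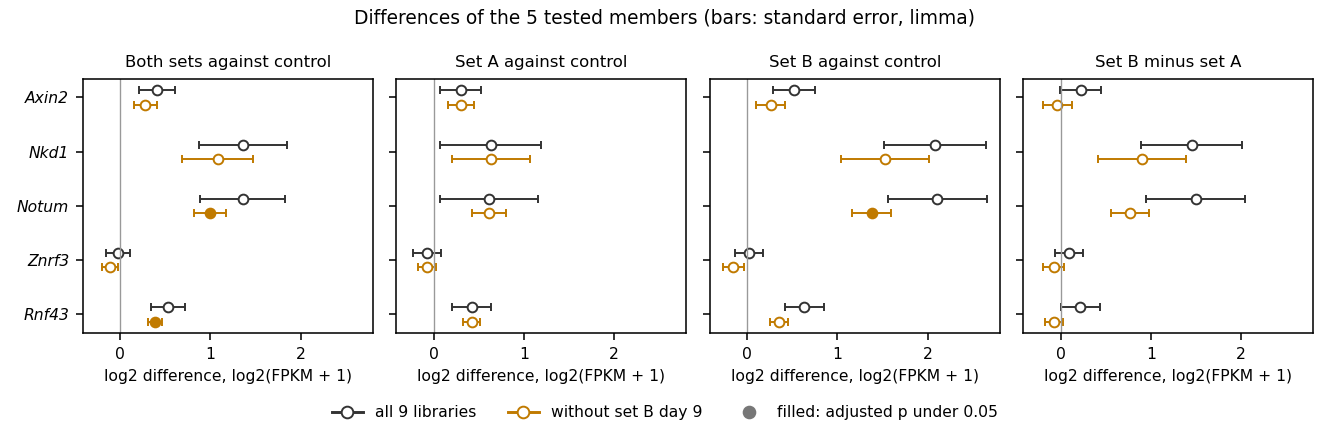
Differences on the log2(FPKM + 1) scale (horizontal axis) with limma's standard error for the 5 tested members in 4 comparisons, with all 9 libraries in black and without set B day 9 in orange. Filled points, which pass an adjusted p of 0.05, are Notum and Rnf43 for both sets and Notum for set B, all without set B day 9.

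Most members shared their highest library and, in the mutant sets, their lowest day. The day-9 library of set B was the highest of all 9 for 7 of the 9 genes and for 5 of the 5 tested, against 12.7% of all tested genes. In both sets day 10 was the lowest day for 7 of the 9 genes (4 of the 5 tested), against 17.4% of tested genes, with Znrf3 and Dkk2 as the exceptions. Both features held for 6 of the 9 (4 of the 5 tested), all but Znrf3, Dkk2 and Dkk3, and for 4.55% of tested genes. With 1 library per group and day, these are differences between libraries and no test of time was made. Relative to the control of the same day, Nkd1 in set A was 2.87 times as high on day 8, 2.82 on day 9 and 0.620 on day 10. Rnf43 in set A was 1.41, 1.39 and 1.27 times as high on the same days.

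Markers of other cell types moved with some of these libraries. Fibroblast markers (10 genes) summed to 5.85 to 7.10 FPKM in control crypts, to 13.4, 14.4 and 3.20 for set A by day, then to 7.32, 22.1 and 4.60 for set B. Vim made up most of the control sum. The other 9 genes summed to 0.152, 0.340 and 0.962 FPKM for control by day, to 6.84, 8.76 and 0.806 for set A, then to 2.58, 10.7 and 0.520 for set B. Both sums were highest in set B day 9, the library where 7 of the 9 members and 12.7% of tested genes were also highest. Collagen and matrix genes carried the sum without Vim: Dcn had a control mean of 0.0106 FPKM and reached 2.34 in the mutants, Col1a1 0.0261 and 1.17, Col1a2 0.0129 and 1.49, and Col3a1 0.0249 and 1.88. Pdgfra was at most 0.0870 FPKM, and Lum and Twist2 were at 0 in every control. Summed macrophage markers (6 genes) ranged from 4.62 to 4.91 FPKM for control, with 9.72, 13.8 and 4.15 for set A, then 7.07, 10.7 and 3.96 for set B. Lyz2 and Cd68 made up most of that sum. In set B day 9 they were at 6.78 and 2.50 FPKM, against control means of 1.33 and 2.76. Csf1r, Adgre1, C1qa and C1qb each averaged under 1 FPKM in control and in the mutants. Summed endothelial and enteric glia markers stayed at or under 1.11 and 0.926 FPKM in all libraries. T cell markers were lowest on day 10, at 17.8 FPKM in set A and 17.7 in set B against 44.4 to 77.5 in the other 7 libraries. Stem cell markers (6 genes, Axin2 among them) summed to 1187 to 1361 FPKM for control, to 1281, 897 and 757 for set A by day, then to 985, 1522 and 938 for set B. Olfm4 made up most of that sum, with means of 1065 FPKM in control and 826 in the mutants. Means of Smoc2 and Slc12a2 were also lower in the mutants, while those of Lgr5 (10.6 and 19.7 FPKM), Axin2 and Ascl2 were higher. None of the 6 passed in the pooled comparison. Tuft cell markers summed to 16.4 to 28.9 FPKM for control, to 17.4, 15.2 and 6.06 for set A, then to 9.36, 22.5 and 6.74 for set B. The stem cell, tuft cell, fibroblast and enteric glia sums were lowest on day 10 within each mutant set. Among mutants these sums were highest in set B day 9, the order most members showed. T cell and macrophage sums were also lowest on day 10 within each mutant set, but among mutants highest in set A day 9. Enterocyte markers summed to 6719 FPKM in set B day 9, to 1659 to 3277 in the other mutants and to 2664 to 6195 in control. Of 8 Paneth cell markers 4 fell in the pooled comparison (Lyz1, Defa24, Defa29 and Ang4), where 0.645% of tested genes were called lower, and 0 fell for set A and 1 for set B. Mmp7 and Pla2g2a had positive differences, which did not pass, and Pla2g2a was at 132, 93.7 and 8269 FPKM in control and 2693 to 10178 in the mutants. The 8 together were at 31541 to 60432 FPKM in control and 11612 to 28617 in the mutants. The part of these cell types in the results was not tested.

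Across the 9 libraries, on log2(FPKM + 1), Axin2 and Rnf43 correlated at r = 0.96 and Nkd1 and Notum at 0.95. Without set B day 9 these were 0.88 and 0.91, over 8 libraries. Znrf3 correlated with Rnf43 at 0.60 and with Axin2 at 0.68, and at −0.13 and 0.16 without that library. These are descriptions over libraries that share 1 scaling and 3 groups. Among 11076 other genes, Atoh8, which encodes a basic helix-loop-helix factor, was most like Axin2 (r = 0.98), followed by Lect2 and Rpp25 (both 0.96). Fam89a and Ifitm1 were most like Nkd1 (0.99 and 0.98), followed by Prox1 (0.97). Chrnb1, Dtx3 and Prox1 were most like Notum (0.96, 0.95 and 0.95). Fhdc1, Fbxo44 and Chrnb1 were most like Rnf43 (0.98, 0.97 and 0.96), and Spata24, Nenf and Mvb12b most like Znrf3 (0.98, 0.98 and 0.95). Prox1, which encodes a homeobox factor, is thus near both Nkd1 and Notum. It was at 0.471 to 0.534 FPKM in control and 0.544 to 2.37 in 5 mutants, and at 3.72 in set B day 9. Without set B day 9, r with Notum was 0.80 for Dtx3 and 0.86 for Chrnb1. It was then 0.88 for Lect2 with Axin2 and for Chrnb1 with Rnf43, and 0.916 or higher for the other pairs. These genes were picked for the highest r among 11076, so a high r is no test.

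The other genes of the pathway give the setting. In both sets against control 0 genes passed of 3 tested among 15 other secreted antagonists and their co-receptors, of 14 among 19 other intracellular inhibitors, of 14 among 18 WNT and R-spondin receptors, and of 16 among 17 other WNT-activated genes, where 1.16% of all tested genes did. Their median log2 differences were −0.08, −0.03, 0.07 and 0.18, beside 0.53 for the 5 tested feedback inhibitors and −0.0017 for all tested genes. Of the 3 genes behind −0.08, only Sfrp5, given below, is a secreted antagonist, and the rest are co-receptors. Without set B day 9, 3 of 15 tested WNT-activated genes rose (Sp5, Ephb3 and Prox1) and 1 of 14 receptors (Lgr4), where 8.29% of genes passed. Prox1 and Lef1, another WNT-activated gene, reached 1 FPKM only in mutant libraries, like Notum. They were thus tested only through the group where they are high. The medians of 0.53 and 0.18 include these genes, so both depend in part on the filter.

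The secreted antagonist Sfrp5, which binds WNT proteins, went the other way from Notum and Wif1. Control crypts had 9.80, 14.8 and 9.46 FPKM of Sfrp5, those of set A 5.13, 4.53 and 0.325, and those of set B 1.41, 10.8 and 0.486. It was lower than every control in 5 mutants, and set B day 9 lay inside the control range. The log2 difference was −1.79 ± 0.72 (limma, adjusted p = 0.213), and −2.23 ± 0.53 without that library (adjusted p = 0.0501), so Sfrp5 did not pass in either. Kremen1, a receptor for Dickkopf proteins, averaged 6.34 ± 0.181 FPKM across controls and 5.95 ± 0.358 across mutants (adjusted p = 0.498).

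Among the intracellular inhibitors Tle1, a Groucho corepressor of TCF factors, averaged 19.4 ± 2.49 FPKM across controls and 24.1 ± 3.65 across mutants (limma, adjusted p = 0.242). Cby1, which binds β-catenin, was at 16.3 ± 2.34 and 14.0 ± 1.48 FPKM (adjusted p = 0.269). On the receptor side Lgr4, the R-spondin receptor that opposes Rnf43 and Znrf3, was at 45.9 to 53.0 FPKM in control and 59.6 to 79.5 in the mutants without overlap. Its log2 difference was 0.56 ± 0.12 (adjusted p = 0.0719), and it rose by 0.63 ± 0.10 without set B day 9 (adjusted p = 0.0183). Fzd5, a Frizzled receptor of the crypt, was at 40.5 to 47.6 FPKM in control and 28.1 to 39.3 in the mutants (log2 −0.32 ± 0.10, adjusted p = 0.131).

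Of the other WNT-activated genes Ephb3 and Ephb2, receptors that position cells along the crypt, pointed in opposite directions. Mean Ephb3 was 10.0 ± 0.756 FPKM for control crypts and 15.6 ± 3.26 for mutants, a log2 difference of 0.56 ± 0.13 (adjusted p = 0.0721). Mean Ephb2 was 14.7 ± 1.00 and 12.1 ± 0.586 FPKM, a log2 difference of −0.26 ± 0.06 (adjusted p = 0.0837). Ctnnb1 itself ranged from 187 to 207 FPKM for control and from 211 to 239 for mutants, a log2 difference of 0.22 ± 0.07 (adjusted p = 0.126). Values per gene cannot tell transcripts with the exon from those without it.

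**Figure D4:**
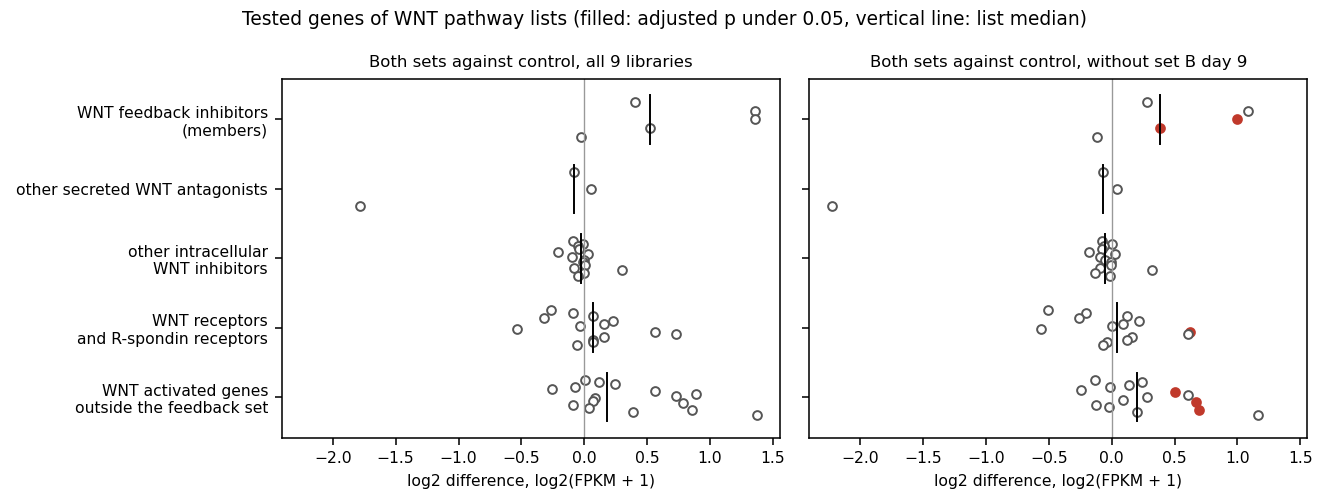
Log2 differences (both sets against control, log2(FPKM + 1) scale) of each tested gene in the feedback set and in 4 further pathway lists, with all 9 libraries on the left and without set B day 9 on the right, and each list's median as a vertical line. No point is filled on the left, and 6 different genes pass on the right: Notum, Rnf43, Lgr4, Sp5, Ephb3 and Prox1.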

How the data were processed

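Poly(A) RNA of mouse crypt epithelium was sequenced in paired-end libraries, per the labels' protocols. The values the authors deposited are read here as FPKM, since the file names no unit: they are not whole, column sums differ, and the smallest values shrink with transcript length. Tools and build in the submitters' processing notes are kallisto 0.46.1, DESeq2 1.40.1 and mm9, with no roles stated, and the sources used here give neither annotation nor filters. Fragments were estimated from the step between low values of 1800 genes with a single transcript in GENCODE M21, and cover counting error only.

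Samples were grouped by title. Limma 3.58.1 in R 4.3.3, with trend and robust options, was fitted to log2(FPKM + 1) of the 12097 genes that reached 1 FPKM in 3 or more libraries, as 3 group means over all 9 libraries. The Benjamini-Hochberg adjustment ran over all tested genes, with a threshold of 0.05. Differences understate changes of low genes. The procedure was tested on simulated data. Replicate numbers 1, 2 and 3 are days 8, 9 and 10 in every group, so the labels pair libraries by day. Deviations of same-day libraries from their group means correlated at −0.24 to 0.07 between control and either set, and at −0.02, 0.40 and 0.62 between the sets. The members and lists were chosen with earlier results of these data known. All 9 members and Ctnnb1 are named, with the 3 genes most correlated with each tested member (mean log2 value of at least 1, gene models and pseudogenes left out) and, from each pathway list, up to 3 that passed or else the 2 with the smallest p. Cdx2, Sp5, Prox1, Lef1, the marker genes given singly and the genes of the ratios were named after their values were seen. Alternatives were a pseudocount of 0.1, no filter, a filter of 5 FPKM, a block for day, rescaling to equal totals, weights per library, a fit to only the groups compared, and dropping 1 library at a time.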

Additional observations from a re-analysis of the deposited data

How the results depend on the processing

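The count of genes passing over the whole table depended on single libraries. Leaving out 1 library at a time gave 17 to 995 genes for both sets against control, 3 to 126 for set A, 18 to 483 for set B and 0 to 2 for set B minus set A. The highest counts against control were those without set B day 9, and the main counts were 140, 26, 76 and 0. Library weights estimated by limma gave 1438, 44, 2035 and 3. Without a filter 80 genes passed for both sets, the compared groups alone gave 48 for set B, and a pseudocount of 0.1 gave 2 for set B minus set A. With the day as a replicate block 16 passed for set A, and the block changed no call of a member. With equal totals 169 genes passed for both sets, 133 higher and 36 lower, against 62 and 78, and the median of all tested genes moved from −0.0017 to 0.035.

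Among the members, calls were gained in 2 ways and none could be lost. With library weights Nkd1, Notum and Rnf43 rose in the pooled comparison (adjusted p = 0.0433, 0.0396 and 0.0485), Nkd1 and Notum in set B (adjusted p = 0.0171 and 0.0151), and no member in set A. Under those weights 1438 of all 12097 tested genes passed in the pooled comparison, 753 as higher and 685 as lower. For set B it was 2035 genes, 1099 as higher and 936 as lower. Without set B day 9 Notum and Rnf43 rose in the pooled comparison and Notum in set B. Leaving out any other single library gave no call. Signs turned for small differences: Znrf3 was 0.0055 with equal totals for both sets, and with library weights −0.0873 for set B and −0.0185 for set B minus set A, where Rnf43 was −0.0352. With 1 library left out Znrf3 ran from −0.114 to 0.0295 for both sets, from −0.154 to 0.133 for set B and from −0.0791 to 0.208 for set B minus set A, where Axin2 ran from −0.0370 to 0.391 and Rnf43 from −0.0704 to 0.361. The exact permutation p of Wif1 was 0.0179 to 0.0357 with 1 library left out. It was the smallest possible (0.0357 for 2 controls against 6, 0.0179 for 3 against 5) except without set A day 9, where it was 0.0357. The cause of these changes was not tested. Depth limits Wif1, Dkk2, Dkk3 and control Notum, which rest on few fragments.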
